A study of Mus musculus with 6 samples.

Results

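The voltage-gated sodium and calcium channel genes were examined in RNA-seq of the prefrontal cortex (PFC) of early life stress (ELS) mice. They were taken from the count table by name: every symbol that starts with Cacna, Cacnb or Cacng, and every Scn symbol with a number followed by a or b. This gave 40 of the 22000 genes in the table, and 31 of the 40 had at least 1 CPM (counts scaled to library size) in all 3 mice of one group, as did 13185 of all genes. The animals were male C57BL/6N mice at 9 weeks of age with no transgene or drug, 3 control mice and 3 ELS mice, with 1 library from each mouse. ELS mice were housed singly from weaning, under a filter cap, whereas control mice shared a cage with other males and had no cap, and both stayed so housed until dissection. Housing alone and the use of a cap cannot be told apart in this design. Libraries held from 28405795 to 35241743 counts.

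Neurons fire action potentials through voltage-gated sodium channels and turn them into calcium entry through voltage-gated calcium channels. In both families a single large alpha subunit forms the pore and senses voltage, and smaller auxiliary subunits set how much channel reaches the membrane and how it gates. In cortex, sodium channels gather at the axon initial segment, where spikes start, while the calcium channels at the nerve terminal trigger transmitter release. The Cacng genes are named as calcium channel gamma subunits, but most of those used by brain are transmembrane AMPA receptor regulatory proteins (TARPs), which carry AMPA-type glutamate receptors to the synapse.

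No difference between ELS and control mice passed the test in any of the 31 genes. In edgeR's quasi-likelihood test, 0 of 31 passed an adjusted p under 0.05 with an absolute log2 fold change above 0.3, against 0.0152% of the 13185 genes tested. At an unadjusted p under 0.05 the count was again 0 of 31, where 4.23% of all genes lay under that value, and DESeq2, the edgeR likelihood ratio test and limma-voom each also gave 0 at both limits. In every one of the 31 genes the CPM of the groups overlapped, whereas the groups did not overlap in 8.28% of all genes. The median log2 fold change (ELS minus control) was -0.026 over the 31 genes and -0.0046 over all genes, with 12 values above 0 and 19 below. When the level of striatal markers entered the fit, the median was 0.047, with 20 values above 0 and 11 below. With each mouse left out in turn, the number above 0 ran from 6 of 31 without control mouse 3 to 22 of 31 without control mouse 2. The values of the 31 genes ran from -0.12 for Scn1a to 0.16 for Cacna2d4. The 95% interval of the fold change lay within 0.3 of 0 on the log2 scale for 21 of 31 genes, 16 of the 18 auxiliary genes but 5 of the 13 pore genes. For the other 10 genes a change of that size lay inside the interval. RNA of the whole tissue was measured, so fewer cells of a type and less RNA per cell cannot be told apart.

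**Figure D1:**
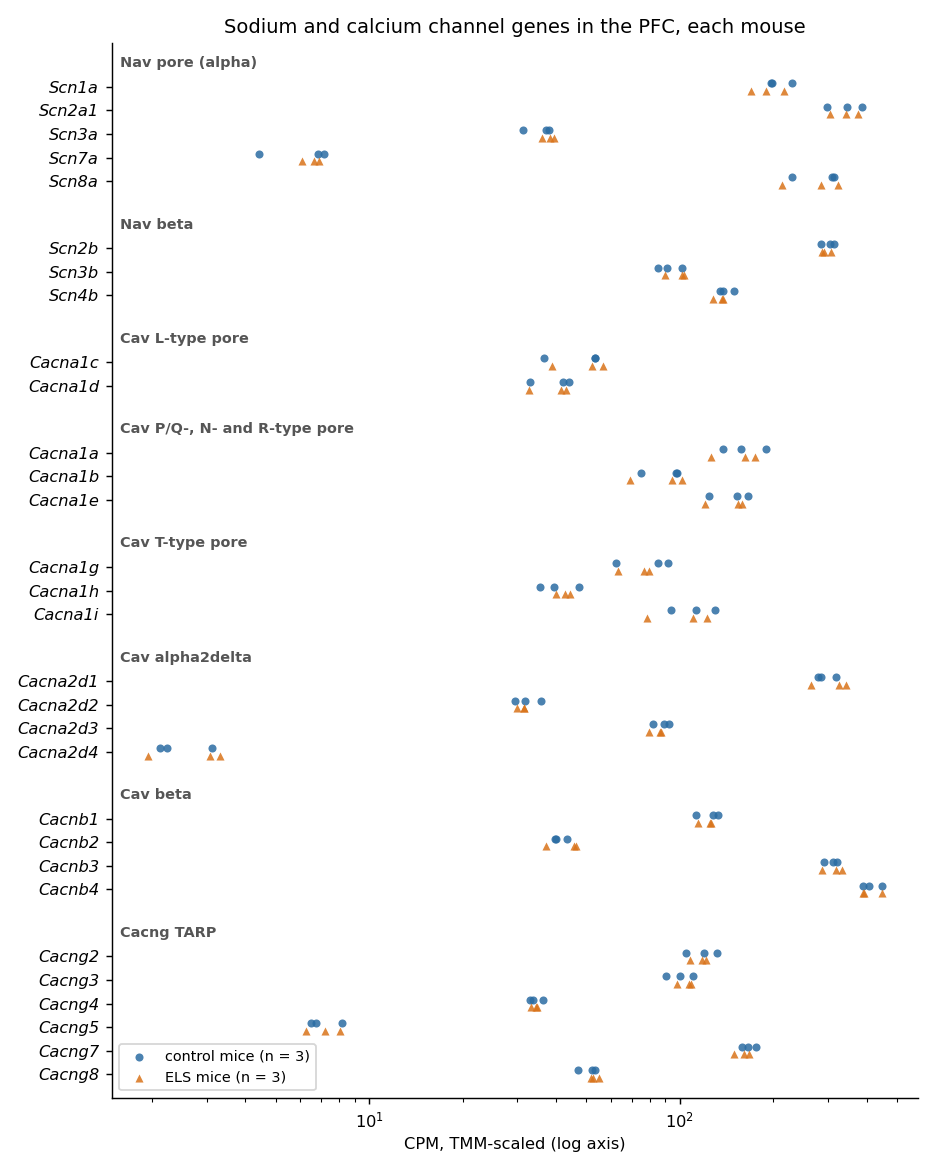
TMM-scaled CPM on a log axis for 30 of the 31 channel genes, grouped by role, with 1 point for each control mouse (circles, n = 3) and each ELS mouse (triangles, n = 3). In every gene shown the points of the groups overlap, and Cacna2d4 is the lowest, between 1.95 and 3.32 CPM.

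The Nav pore genes were led by Scn2a1, the gene now named Scn2a, whose channel is the main one of excitatory cortical neurons in early life and remains at their axon initial segment. It had 387, 344 and 297 CPM in control mice 1 to 3, and 305, 374 and 344 CPM in ELS mice 1 to 3. Control mouse 3 and ELS mouse 1 were the low ones, one in each group, and the group means of 343 ± 44.9 and 341 ± 34.8 CPM (SD, n = 3 each) lay closer together than the mice within a group. The log2 fold change was -0.0073 (standard error 0.0987, 95% interval -0.22 to 0.21), at an unadjusted p of 0.942 in edgeR's quasi-likelihood test. Scn8a, the channel of mature initial segments and nodes of Ranvier, had 310, 315 and 231 CPM in control mice and 214, 323 and 285 CPM in ELS mice. The same mice were low, and the highest of the 6 was an ELS mouse. Its log2 fold change was -0.057 with a wide interval of -0.36 to 0.25, and with each mouse left out it ran from -0.20 without ELS mouse 2 to 0.091 without ELS mouse 1.

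Scn1a, the sodium channel on which fast-spiking interneurons depend, had 199, 230 and 197 CPM in control mice and 170, 216 and 189 CPM in ELS mice. Only ELS mouse 2 lay within the control range. Scn1a had the smallest unadjusted p of the 31 genes, 0.209 in edgeR's quasi-likelihood test, with a log2 fold change of -0.12 (standard error 0.0929). With each mouse left out in turn this ran from -0.22 without ELS mouse 2 to -0.044 without ELS mouse 1, and it was -0.047 without control mouse 2. Pvalb, a marker of fast-spiking interneurons, had a log2 fold change of -0.16 at an unadjusted p of 0.115 in that test, and its part in the Scn1a value was not tested. The other 7 interneuron markers ran from -0.19 (Lhx6) to 0.071 (Gad2), and the sum of all 8 was 882 to 945 CPM in control mice and 884 to 935 CPM in ELS mice. Scn3a, an alpha subunit used mostly before birth, was much lower. It averaged 35.5 ± 3.65 CPM over the controls and 37.8 ± 1.78 over ELS mice (SD, n = 3 per group), a log2 fold change of 0.094. Scn7a, a sodium sensor that has lost voltage gating and is known from glia and circumventricular organs, had 4.44 to 7.18 CPM.

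Levels can be set against each other only per length of transcript, and were divided by the length of all annotated exons. On that scale Scn2a1 stood at 26.9 ± 3.53 CPM per kb in control mice and 26.8 ± 2.74 in ELS mice. Scn1a and Scn8a followed, with means over all mice of 18.0 and 17.7 CPM per kb and ranges of 15.2 to 20.6 and 13.5 to 20.5, so these neighbours did not differ beyond the spread between mice. When the longest coding transcript was taken as the length, Scn8a came before Scn1a, at 24.4 and 23.9 CPM per kb. Scn2a1 made up 37.8% to 42.4% of the summed Nav pore level of a mouse, Scn1a 24.8% to 30.1% and Scn8a 24.0% to 27.9%. The ratio of Scn8a to Scn2a1 per kb ran from 0.627 to 0.738 in control mice and from 0.566 to 0.697 in ELS mice, and the groups overlapped. Scn2a1 was thus first of the Nav pore genes in every mouse, and the order of Scn1a and Scn8a changed from mouse to mouse.

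The Nav beta genes encode single-pass subunits that tether sodium channels and also act as adhesion molecules. Per kb of exon, Scn2b reached a mean of 64.0 CPM over all mice, Scn4b 27.6 and Scn3b 17.5, and the ranges of these 3 genes over the mice did not touch. Scn2b had 305, 314 and 284 CPM in control mice and 288, 307 and 291 CPM in ELS mice, with overlapping groups. Its log2 fold change was -0.030 (95% interval -0.17 to 0.11), and those of Scn4b and Scn3b were -0.065 and 0.084. These 3 genes also varied little: the highest mouse exceeded the lowest by 1.11 to 1.21 times, against a median of 1.23 times over all genes.

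Scn4b encodes the subunit tied to resurgent sodium current and is abundant in striatum. It had 135, 138 and 149 CPM in control mice and 138, 128 and 137 CPM in ELS mice. Control mouse 3 was the highest of the 6 for this gene, in contrast to the other Nav genes that passed the filter, for which it was never the highest. The summed level of the 9 striatal markers that passed the filter was also highest in control mouse 3, at 570 CPM. In ELS mouse 1, where that sum was nearly as high at 557 CPM, Scn4b was at 138 CPM, in the middle of the 6 mice. The part of striatal tissue in these values was not tested.

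**Figure D2:**
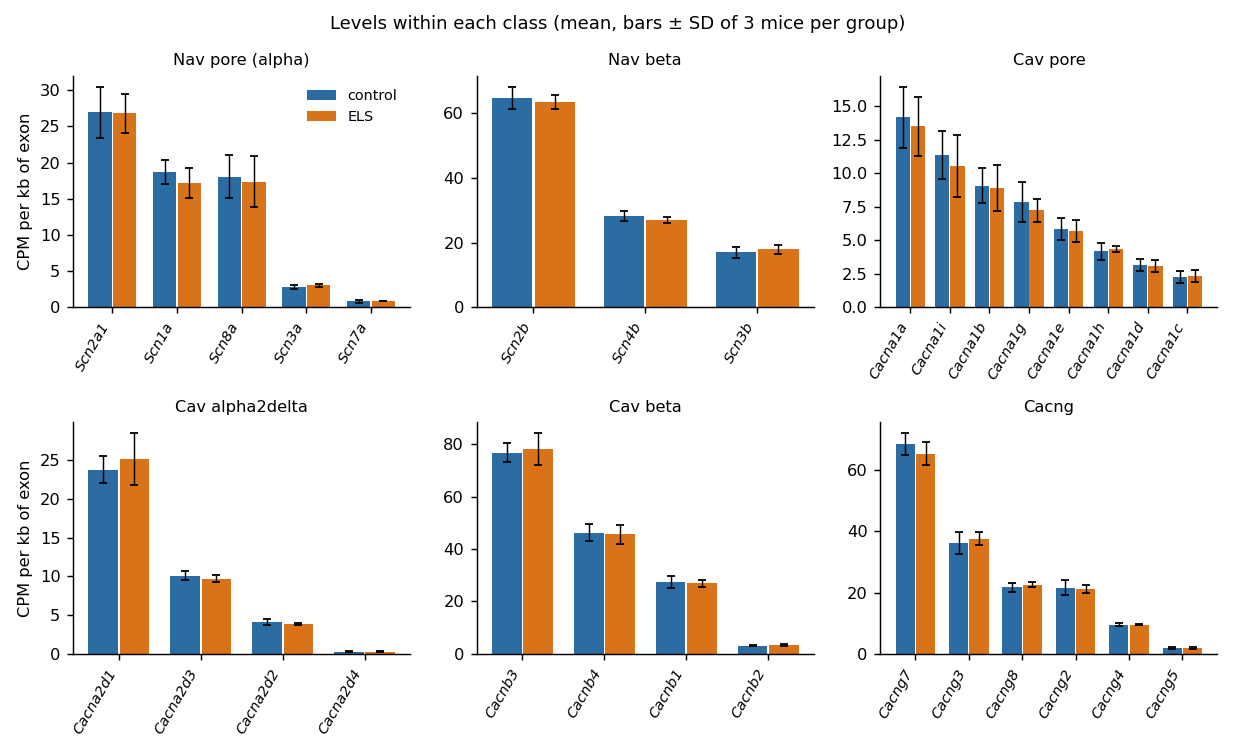
Mean CPM per kb of annotated exon in control and ELS mice, with bars of ± 1 SD over 3 mice, for 30 of the 31 channel genes by class, in order of level. Control and ELS bars of a gene stand at like heights in each class, as for Cacnb3 at 76.8 and 78.1 CPM per kb.

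The 8 Cav pore genes that passed the filter covered all 3 functional groups. The P/Q-, N- and R-type genes Cacna1a, Cacna1b and Cacna1e serve transmitter release and dendritic calcium entry. Cacna1a led the Cav pore genes, with 158, 189 and 138 CPM in control mice and 126, 174 and 162 CPM in ELS mice. Its log2 fold change was -0.070 (standard error 0.125, 95% interval -0.34 to 0.20, unadjusted p of 0.583 in edgeR's quasi-likelihood test). Cacna1b and Cacna1e had values of -0.028 and -0.032, and in both genes control mouse 3 and ELS mouse 1 were the lowest. The Cacna1a exons overlap a gene on the other strand over 3.81% of their length.

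The L-type genes Cacna1c and Cacna1d encode the channels that couple depolarization to transcription in the nucleus. Cacna1c had 53.3, 53.5 and 36.5 CPM in control mice and 38.8, 56.6 and 52.2 CPM in ELS mice. Each group held 1 low mouse, at 69.1% and 73.6% of the median of the 6, and the log2 fold change was 0.043 (95% interval -0.28 to 0.37). With each mouse left out in turn this ran from -0.12 without control mouse 3 to 0.19 without ELS mouse 1, the low ones. Cacna1d lay between 32.8 and 44.1 CPM, and the same mice were its 2 lowest. The T-type genes Cacna1g, Cacna1h and Cacna1i open near the resting potential and favour burst firing. Cacna1g had 85.1, 91.6 and 62.2 CPM in control mice and 63.5, 79.4 and 76.6 CPM in ELS mice, a log2 fold change of -0.12 (95% interval -0.39 to 0.15). Without control mouse 3 this was -0.27, at an unadjusted p of 0.00512 and an adjusted p of 0.220 in edgeR's quasi-likelihood test, in a fit where 11.7% of all genes had an unadjusted p under 0.05. With each other mouse left out in turn it lay between -0.19 and -0.0095, the last without control mouse 2. Fitted beside the striatal marker score, it was -0.016. Cacna1i had 113, 130 and 93.9 CPM in control mice and 78.5, 123 and 110 CPM in ELS mice, and Cacna1h from 35.5 to 47.5 CPM.

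Per kb of exon, Cacna1a stood at 13.8 CPM over all mice, Cacna1i at 10.9, Cacna1b at 8.98, Cacna1g at 7.54, Cacna1e at 5.78, Cacna1h at 4.25, Cacna1d at 3.13 and Cacna1c at 2.29. The ranges of neighbours in this order overlapped between mice. For example, Cacna1a ran from 11.0 to 16.6 and Cacna1i from 7.96 to 13.1 CPM per kb. The exception was Cacna1h (3.63 to 4.86), which lay wholly above Cacna1d (2.60 to 3.50). Within each of the 6 mice, however, all of these genes stood in this same order. Cacna1a made up 22.9% to 25.4% of the summed Cav pore level in the 6 mice, Cacna1e 10.03% to 10.5% and Cacna1h 6.20% to 8.99%. With the longest coding transcript as the length, Cacna1e moved up past Cacna1b and Cacna1g to 9.77 CPM per kb, as its annotated exons sum to 25.2 kb.

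The alpha2delta subunits are extracellular proteins that bring channels to the terminal, and Cacna2d1 is the target of gabapentin. Cacna2d1 had 320, 285 and 279 CPM in control mice and 265, 344 and 326 CPM in ELS mice. Its log2 fold change was 0.080 (standard error 0.0943, 95% interval -0.12 to 0.28, unadjusted p of 0.41 in edgeR's quasi-likelihood test). Without ELS mouse 1 this was 0.18, at an unadjusted p of 0.0486 and an adjusted p of 0.999994 in the same test. It was 0.0010 without ELS mouse 2, the other end of the range with each mouse left out. Cacna2d1 made up 59.8% to 66.1% of the alpha2delta level per kb, ahead of Cacna2d3 and Cacna2d2. Cacna2d4, known from retina, lay just inside the filter at 1.95 to 3.32 CPM, which gave the widest interval of the 31 genes, -0.36 to 0.68, and the widest ratio of highest to lowest mouse, 1.70 times.

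The cytoplasmic beta subunits chaperone the pore to the membrane. Cacnb3 had 311, 321 and 292 CPM in control mice and 287, 319 and 334 CPM in ELS mice, with a log2 fold change of 0.025 (standard error 0.0734, 95% interval -0.13 to 0.18, unadjusted p of 0.74 in edgeR's quasi-likelihood test). Cacnb4 had 407, 447 and 390 CPM in control mice and 393, 447 and 389 CPM in ELS mice, so that each group held a mouse at 447 CPM. Per kb of exon Cacnb3 made up 48.8% to 53.8% of the class and Cacnb4 28.03% to 31.1%. A gene on the other strand overlaps 15.99% of the Cacnb4 exons. The study's methods name stranded kits but not the strand setting of the counting, so reads of the 2 genes cannot be told apart there. Cacnb1 and Cacnb2 had log2 fold changes of -0.034 and 0.074, and all 4 intervals lay within 0.3 of 0.

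All 6 TARP genes passed the filter. The type I TARPs Cacng2, known as stargazin, Cacng3, Cacng4 and Cacng8 bind the synaptic scaffold, and Cacng5 and Cacng7 form type II. Cacng7 led them, with 159, 176 and 166 CPM in control mice and 150, 168 and 161 CPM in ELS mice. Its fold change on the log2 scale was -0.067 (standard error 0.0701, 95% interval -0.22 to 0.085, unadjusted p of 0.359 in edgeR's quasi-likelihood test). Per kb it reached 66.9 CPM over all mice, ahead of Cacng3 at 36.9, Cacng8 at 22.2 and Cacng2 at 21.3, and the last 2 overlapped between mice. Cacng4 was the steadiest of the 31 genes, between 32.9 and 36.3 CPM in all 6 mice, with a log2 fold change of -0.0047. Cacng5 was low, at 6.26 to 8.15 CPM.

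**Figure D3:**
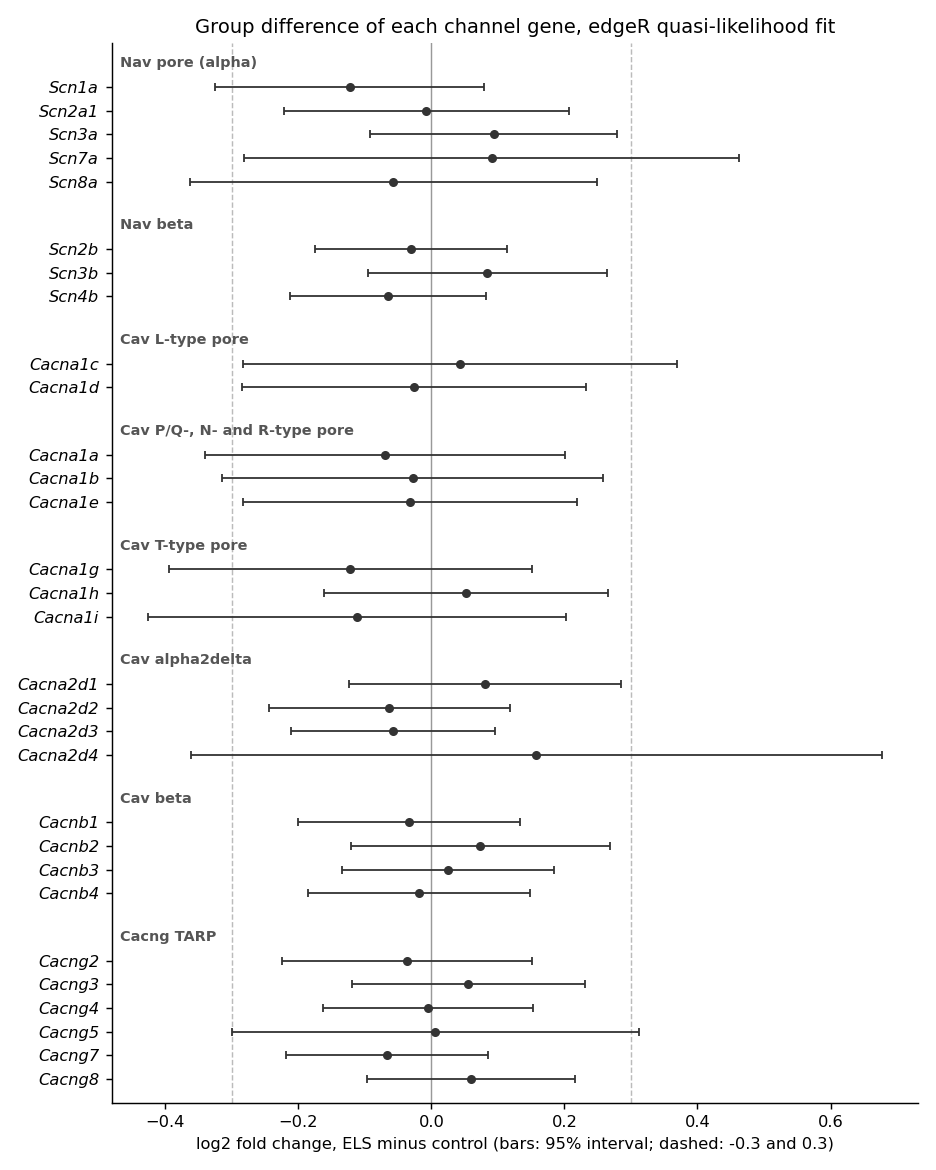
Log2 fold change of ELS minus control mice for 30 of the 31 channel genes (points) with its 95% interval (bars) from edgeR's quasi-likelihood fit, and dashed lines at -0.3 and 0.3. Every interval holds 0, the values run from -0.12 to 0.16, and the intervals of 20 of the genes shown lie between the dashed lines.

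The genes left out by the filter were 9 in number and belong to muscle, retina or sensory neurons in the main. Scn4a and Cacna1s, the skeletal muscle pores, had 4 and 90 counts over all 6 mice, and Cacng1, the gamma subunit of that muscle channel, had 4. Scn11a, a pore of pain-sensing neurons, had 3, and Cacna1f, the retinal L-type pore, had 24. The filter used CPM without TMM factors and takes no account of length. Cacng6 lay just outside it, at 0.651 to 1.14 TMM-scaled CPM, and Cacna2d4 just inside, at 1.95 to 3.32. Scn9a, a pore of sensory neurons, had 19, 26 and 11 counts in control mice and 32, 32 and 31 in ELS mice, which did not overlap in counts but did in CPM, at 0.384 to 0.921 and 0.915 to 0.961. Scn10a had 6, 5 and 6 counts in control mice and 1, 1 and 2 in ELS mice. These groups did not overlap, and with no filter on low counts its unadjusted p was 0.022 and its adjusted p 0.999987 by the quasi-likelihood test of edgeR, at 17 against 4 counts in all.

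Many of the genes lie beside each other in the genome. On GRCm38, 18 of the 40 genes fell into 7 groups in which neighbours were under 250 kb apart. The sodium channel pores held chromosome 2 from 65457118 to 65767447 (Scn3a and Scn2a1) and from 66270778 to 66784914 (Scn1a, Scn9a and Scn7a), all on the minus strand but for Scn2a1. Scn10a and Scn11a lay 34.4 kb apart on the minus strand of chromosome 9, from 119608456 to 119825456, and neither passed the filter. Scn2b (45117782 to 45130070) and Scn4b (45138395 to 45154152), both on the plus strand of that chromosome, were 8.32 kb apart. Cacng7, Cacng8 and Cacng6 shared 103 kb of chromosome 7, and of these Cacng6 alone fell under the filter.

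Promoter sequences were set beside these levels. RefSeq promoters, from 250 bases before to 50 after a start site on GRCm38.p6, were found for 30 of the 40 genes. The dinucleotide CG, which reads the same on both strands and marks CpG islands where dense, occurred at least 10 times in 19 of 34 promoters of genes that passed the filter, in 1 of 7 promoters of genes left out, and in 43.5% of all promoters. Some genes have several promoters, so the one with the most CG was also taken for each gene. It held at least 10 in 17 of 23 genes that passed, 1 of 7 left out and 45.8% of all genes. Among the channel genes the most was 63, in a promoter of Cacna1d. These counts are a description, since the filter used the level. The promoters shown are those of Scn8a, with a CG-rich start at chr15:100870395-100870694 (plus strand), of the neighbours Scn4b (chr9:45138374-45138673, plus strand) and Scn2b (chr9:45117626-45117925, plus strand), which differ in CG though both genes are expressed, and of Cacng6 (chr7:3424412-3424711, plus strand), which was left out. Capitals mark CG.
Scn8a: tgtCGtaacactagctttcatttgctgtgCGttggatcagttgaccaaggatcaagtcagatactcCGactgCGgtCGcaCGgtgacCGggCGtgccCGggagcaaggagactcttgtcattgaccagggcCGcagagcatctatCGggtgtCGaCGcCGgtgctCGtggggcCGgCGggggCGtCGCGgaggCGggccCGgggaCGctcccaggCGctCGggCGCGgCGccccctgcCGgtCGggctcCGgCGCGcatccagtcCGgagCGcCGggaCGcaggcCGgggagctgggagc
Scn4b: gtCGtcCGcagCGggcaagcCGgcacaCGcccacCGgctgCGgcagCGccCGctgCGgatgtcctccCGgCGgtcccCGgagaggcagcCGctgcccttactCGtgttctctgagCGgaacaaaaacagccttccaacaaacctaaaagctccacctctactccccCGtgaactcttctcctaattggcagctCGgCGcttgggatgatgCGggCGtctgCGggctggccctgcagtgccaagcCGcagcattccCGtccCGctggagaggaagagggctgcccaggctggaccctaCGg
Scn2b: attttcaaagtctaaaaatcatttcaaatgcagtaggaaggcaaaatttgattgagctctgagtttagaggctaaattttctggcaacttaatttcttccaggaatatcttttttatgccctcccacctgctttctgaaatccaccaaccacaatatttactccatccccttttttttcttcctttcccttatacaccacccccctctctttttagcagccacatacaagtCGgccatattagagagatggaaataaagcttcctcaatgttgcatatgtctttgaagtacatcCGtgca
Cacng6: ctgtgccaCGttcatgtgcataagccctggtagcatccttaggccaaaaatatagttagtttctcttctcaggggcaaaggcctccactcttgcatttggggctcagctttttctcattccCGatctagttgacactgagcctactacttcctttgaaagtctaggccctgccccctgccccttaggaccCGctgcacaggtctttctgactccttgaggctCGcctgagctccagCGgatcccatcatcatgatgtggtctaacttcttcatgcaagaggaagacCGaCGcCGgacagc

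The Scn8a promoter shown held 38 CG and the other annotated for that gene, at chr15:100936021-100936320, held 12. The count was 26 for Scn4b, 2 for Scn2b and 8 for Cacng6. Scn2b, at 284 to 314 CPM, was above Scn4b, at 128 to 149 CPM, also per kb of exon (2.04 to 2.43 times in control mice and 2.23 to 2.55 times in ELS mice). The 2 annotated promoters of Scn2a1 held 3 and 9 CG.

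In each of the 31 genes, the highest and lowest mouse within either group lay farther apart, as a ratio, than the group means. Control mouse 3 and ELS mouse 1 were the 2 lowest of the 6 mice in 11 of the 13 pore genes, all but Scn1a and Cacna1h, and in 7 of the 18 auxiliary genes. They were the 2 lowest in 16.5% of all genes and in 42.8% of the 1833 other genes with over 9 kb of annotated exon, a length that most pore genes exceed. This count was chosen after the values were seen. The median pore gene deviated from its mean over the 6 mice by -0.22 in control mouse 3 and -0.25 in ELS mouse 1, on the log2(CPM + 1) scale, and by 0.15, 0.16, 0.14 and 0.050 in control mice 1 and 2 and ELS mice 2 and 3. The auxiliary genes deviated by -0.072 and -0.057 in the same 2 mice, and the other genes with over 9 kb of exon by -0.088 and -0.067. The median of the pore genes was below that of the long genes in both mice, a comparison with no test. Between the highest and lowest mouse, pore genes differed by a median of 1.47 times, auxiliary genes by 1.18 times and all genes by 1.23 times.

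Several marker sums differed in these 2 mice. The PFC label held in that all 9 markers of cortical excitatory neurons were expressed, at 28.7 CPM or more in every mouse. Their summed level was lowest in the same mice, at 3850 CPM in control mouse 3 and 3772 CPM in ELS mouse 1, against 4052 to 4171 CPM in the others. Most of that sum is Slc17a7 and Nrgn, and the median deviation of the 9 markers was lowest in ELS mouse 3, at -0.097, against -0.085 in control mouse 3 and -0.082 in ELS mouse 1. The 8 pan-neuronal markers summed to 8922 and 8558 CPM in those 2 mice, against 8966 to 9084 CPM in the others. The sum over the 9 of 12 striatal markers that passed the filter was 570 and 557 CPM in those 2 mice and 308 to 396 CPM in the others. Oligodendrocyte markers summed to 8043 and 7136 CPM against 6108 to 6741 CPM, and the 5 blood markers to 85.2 and 79.7 CPM against 51.0 to 64.4 CPM. Other sums did not set the 2 mice apart together. Interneuron markers summed to 945 and 910 CPM against 882 to 935 CPM, and astrocyte markers to 5561 and 4910 CPM against 5544 to 5703 CPM. Those of microglia summed to 360 and 364 CPM against 336 to 369 CPM. The same was true of oligodendrocyte precursor and of endothelial and mural markers. No marker in these lists was at 0 in every mouse, and the lowest value among the 9 striatal markers that passed the filter was 3.38 CPM. By group the striatal sums were 308 to 570 CPM in control mice and 370 to 557 CPM in ELS mice. The part of tissue make-up and of exon length in the pore gene values was not tested.

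Without both of these mice, an alternative added after the values were seen, again 0 of 31 genes passed the adjusted threshold. At an unadjusted p under 0.05 there were then 2 of 31, against 8.74% of all genes: Cacna1g at -0.18 and Cacna2d1 at 0.15 on the log2 scale, with adjusted p of 0.433 and 0.531 in edgeR's quasi-likelihood test. With the level of striatal markers as a covariate, 3 of 31 had an unadjusted p under 0.05, against 7.24% of all genes. These were Cacna1c at 0.17, Cacna2d1 at 0.12 and Scn3a at 0.14, with adjusted p of 0.439, 0.677 and 0.677.

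**Figure D4:**
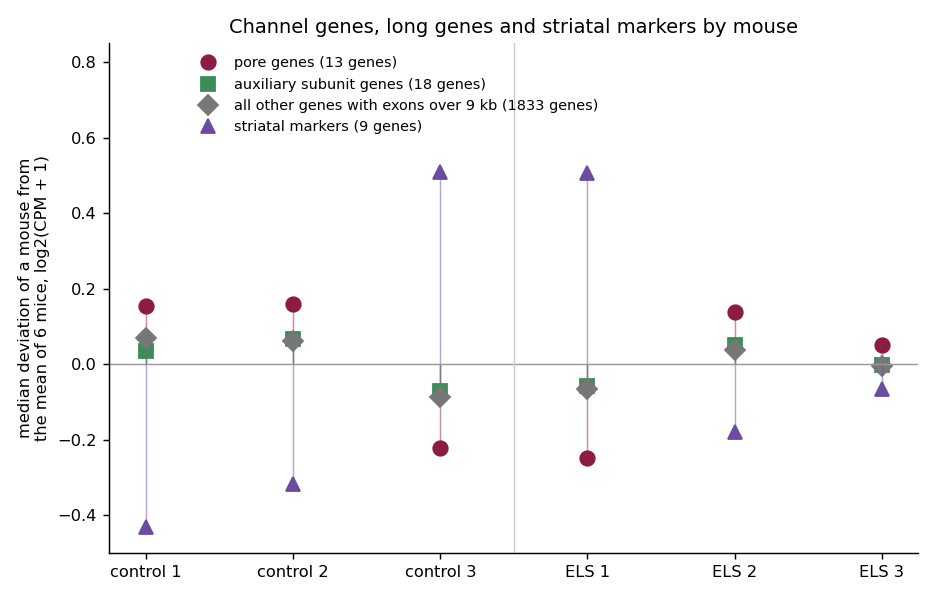
Median deviation of each mouse from the mean of all 6 on the log2(CPM + 1) scale, for the 13 pore genes, the 18 auxiliary genes, the 1833 other genes with over 9 kb of exon and the 9 striatal markers. Pore genes lie at -0.22 in control mouse 3 and -0.25 in ELS mouse 1, where striatal markers lie at 0.51 and 0.51.

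Proteins that place or regulate the channels were read from a list of 38 genes, of which 36 passed the filter. It holds the intracellular fibroblast growth factors that bind sodium channels, the initial segment scaffold Ank3, the calmodulins, the NALCN leak channel complex, release site proteins such as Rims1, and kinases and ligases that act on the channels. In edgeR's quasi-likelihood test 0 of 36 passed the adjusted threshold and 0 of 36 an unadjusted p under 0.05. The median log2 fold change was -0.015, with 15 values above 0 and 21 below, from -0.24 for Rem2 to 0.54 for Rrad. Rrad had 1.30, 0.283 and 1.47 CPM in control mice and 1.80, 1.57 and 1.09 CPM in ELS mice, and passed the filter through the ELS group alone. The groups did not overlap in 2 of 36 genes, 1 in each direction, against 8.28% of all genes, and these are named here after their values were seen. Akap5, an anchor that brings kinases to L-type channels, had 84.5, 82.6 and 76.3 CPM in control mice and 84.6, 101 and 85.7 CPM in ELS mice, with the closest values of the groups almost touching, and a log2 fold change of 0.16 at an unadjusted p of 0.074 in that test. Stac2, an adaptor of L-type channels, had 150, 167 and 146 CPM in control mice and 131, 145 and 144 CPM in ELS mice, and a log2 fold change of -0.14 at an unadjusted p of 0.0875.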

How the data were processed

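PFC RNA was sequenced in 6 mice, 3 per group. The authors trimmed the reads, aligned them to mm10 with STAR and counted uniquely mapped reads with HTSeq (2.7.1a and 0.9.1 in the submitters' processing notes; the paper names another STAR release). They deposited raw counts per gene symbol. The annotation release and strand setting are not given in the sources used here, and the labels and the paper name different stranded kits. Columns named SI (social isolation) were matched to ELS mice by number.

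The test took genes that reached 1 CPM in each mouse of either group. It was run in R 4.3.3 with edgeR 4.0.16 (TMM factors, quasi-likelihood fit, condition as the only term), and p-values were adjusted by Benjamini-Hochberg over all 13185 genes. A call needed both an adjusted p under 0.05 and a log2 fold change beyond 0.3 in size. Intervals (95%) and standard errors come from the F statistic. DESeq2 1.42.0 and limma 3.58.1 were alternatives, beside other normalizations and filters, each mouse left out, a replicate block and a striatal covariate. Tests were also checked on simulated counts. Members and lists were chosen with earlier results of these data known. Genes named with full statistics are those with an unadjusted p under 0.05 or groups that do not overlap, and the highest gene of each class, but for items withheld from the text, which are not reported here and stay in the counts. Others were named for their role, and Scn1a, Cacna1g, Scn10a, Akap5 and Stac2 after their values were seen. Symbols were matched to GENCODE M21 (GRCm38, the same assembly as mm10) for 90.3% of symbols and all 40 members. Pairs of mice within a group differed by more than sampling noise (chi-square over degrees of freedom from 6.70 to 21.4). Both groups came from litters of 1 mother, and the labels tie no mouse to a litter. Control mice shared a cage, and the sources do not say whether those sequenced came from 1 cage. The p-values set the difference of the groups against the spread between mice within them.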

Additional observations from a re-analysis of the deposited data

How the results depend on the processing

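The count of channel genes past the adjusted threshold was 0 under every alternative. The count at an unadjusted p under 0.05 was 0, and became 1 of 40 with no filter beyond 1 read (Scn10a, against 4.14% of all genes), 2 of 31 without both mice low in pore genes (8.74%) and 3 with the striatal marker score as covariate (7.24%). With each mouse left out in turn it ran from 0 to 1, against 2.77% to 11.7% of all genes: Cacna1g without control mouse 3, Cacna2d1 without ELS mouse 1 and Scn1a without ELS mouse 2. The count of genes whose groups do not overlap was 0, and became 1 of 40 with no filter, against 8.10% of all genes, and 6 of 31 without both mice, against 39.2% of all genes; with each mouse left out it ran from 0 to 4, the 4 without control mouse 3, against 29.5% of all genes. The median log2 fold change ran from -0.086 to 0.054 with each mouse left out and was 0.047 with the striatal covariate. Among channel partners the count at an unadjusted p under 0.05 was 0, and became 1 of 36 with the replicate block (4.35% of all genes), 3 without both mice (8.74%) and 3 with the striatal covariate (7.24%). With each mouse left out it ran from 0 to 6, the 6 without control mouse 3 (11.7%). The log2 fold change of Scn2a1 changed sign with upper-quartile factors (0.0030) and with the striatal covariate (0.061), and that of Cacna1a with the covariate (0.0090). With each mouse left out, Scn2a1 ran from -0.10 to 0.089, Cacna1a from -0.17 to 0.058 and Cacnb3 from -0.025 to 0.082. Cacng7 ran from -0.11 to -0.026 in those fits. The cause of these changes was not tested.

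With replicate number as a replicate block, 0 channel genes had an unadjusted p under 0.05, and the median was -0.026. The deviations of same-numbered mice correlated at -0.164, 0.258 and -0.0355. Such values also carry other differences between mice, and the labels give no pairing. Whether the numbers pair the mice therefore cannot be told.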
